A study of Mus musculus with 10 samples.

Results

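The early growth response genes Egr1, Egr2, Egr3 and Egr4 and the nuclear receptor 4A genes Nr4a1, Nr4a2 and Nr4a3 were followed across the neurite libraries of a study of Cpeb1 and axon injury. These 7 genes, taken by symbol and chosen with earlier results of these data known, are 7 of the 45195 genes with deposited values. All 7 were among the 15712 genes tested. RNA was sequenced from neurites, the processes that cortical neurons of E16.5 mouse embryos send through membrane pores of 3 µm in culture. The 10 libraries fell into 4 groups. There were 2 injured and 2 naive libraries from neurons of Cpeb1 flox/flox mice, labelled knockout, and 3 injured and 3 naive libraries from wild-type neurons. Both genotypes were of the C57BL/6 strain, and neurons of both received AAV2 carrying Cre under the ubiquitous CAG promoter when they were plated. Injured neurites were cut on day 7, by scraping the lower face of the membrane, and lysed 24 hours later, and naive neurites were lysed on day 8 in vitro uncut, so injury cannot be told apart from the younger age of regrown neurites. Cell bodies were scraped off the upper side before lysis. The labels do not say that replicates came from separate cultures, and the p-values cover no more than the spread among the libraries sequenced, which may be technical.

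EGR proteins are zinc finger transcription factors that bind GC-rich sites, and their genes are classic immediate early genes, switched on by growth factors, calcium and neuronal activity through serum response factor with its ternary complex partners and through CREB. NR4A proteins are orphan nuclear receptors that act without a known activating hormone and bind the NBRE motif as monomers, and their genes answer to calcium and cyclic AMP through CREB and MEF2. In cortical neurons both families are known as markers of recent activity, Egr1 with a role in synaptic plasticity and memory, Nr4a1 in limiting synapse density and Nr4a2 in dopamine neuron identity.

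In the mm10 annotation Egr2 lies on chromosome 10 (67535475 to 67542188, plus strand) and Egr3 on chromosome 14 (70077203 to 70082614, plus). Egr4 lies on chromosome 6 (85511121 to 85513589, minus), Nr4a1 on chromosome 15 (101254269 to 101274795, plus), Nr4a2 on chromosome 2 (57106830 to 57124003, minus) and Nr4a3 on chromosome 4 (48045153 to 48086447, plus). All 7 are protein-coding, and no exon of theirs overlaps another gene.

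Cyclic AMP response elements (CRE) are the best known shared control sites of these genes, so the start sites were searched for them. RefSeq promoters of the GRCm38.p6 build, running from 250 bases before to 50 bases after a start, were at hand for 5 of the 7 genes, with 5 starts for Egr2. The stretches below show every motif match of 1 window per gene with 10 bases on each side, 5′ to 3′ on the gene's strand and with positions counted from the start. Capitals mark the CRE core, TGACG or its reverse complement, in Egr2 also the CArG box that serum response factor binds (the run of 10 capitals), and in Nr4a1 also an EGR site (the run of 9 capitals, read on the other strand).
Egr2, chr10:67537748-67537828, plus strand, bases -121 to -41: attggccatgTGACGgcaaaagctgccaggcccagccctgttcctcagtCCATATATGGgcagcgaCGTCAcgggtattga
Egr4, chr6:85513684-85513776, minus strand, bases -187 to -95: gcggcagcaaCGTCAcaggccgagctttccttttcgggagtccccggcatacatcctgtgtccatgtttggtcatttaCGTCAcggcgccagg
Nr4a1, chr15:101266603-101266820, plus strand, bases -243 to -26: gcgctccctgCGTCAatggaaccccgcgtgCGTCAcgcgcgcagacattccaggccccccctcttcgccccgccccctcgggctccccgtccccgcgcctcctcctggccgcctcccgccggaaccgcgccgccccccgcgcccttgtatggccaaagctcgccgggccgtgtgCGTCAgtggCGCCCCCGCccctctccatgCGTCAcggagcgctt
Nr4a2, chr2:57124100-57124213, minus strand, bases -210 to -97: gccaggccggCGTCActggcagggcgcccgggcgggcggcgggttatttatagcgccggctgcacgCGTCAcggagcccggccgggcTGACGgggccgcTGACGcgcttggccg
Nr4a3, chr4:48045064-48045172, plus strand, bases -241 to -133: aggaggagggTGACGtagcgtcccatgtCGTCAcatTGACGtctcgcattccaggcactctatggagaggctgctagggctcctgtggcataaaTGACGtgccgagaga
Nr4a1, Nr4a2 and Nr4a3 each held 4 CRE cores, whereas Egr4 and the Egr2 window shown held 2 each. Among 32544 distinct promoter windows of this length, 20.9% held at least 1 CRE core on either strand, 5.04% held at least 2 and 1.04% at least 3. G and C made up 60.0% of the Egr2 window shown, 67.7% for Egr4, 72.3% for Nr4a1, 81.7% for Nr4a2 and 64.7% for Nr4a3. The shares over all windows were not matched for this content, on which they may depend. The CArG box of Egr2 began at base -72, between its 2 CRE cores, and 1.64% of all windows held such a box. The EGR site of Nr4a1 began at base -60, after a gap of 4 bases from a CRE core, and 3.5% of all windows held GCGTGGGCG or GCGGGGGCG on either strand. The full CRE, TGACGTCA, which contains a CRE core on each strand, and the NBRE, AAAGGTCA, had no match in any member window, against 1.80% and 1.52% of all windows. Of the other 4 Egr2 windows, the first held none of these motifs, the second held a CArG box, and the remaining pair overlapped the one shown and held the same 3 matches. These matches are letters in a window and not measured binding.

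**Figure D1:**
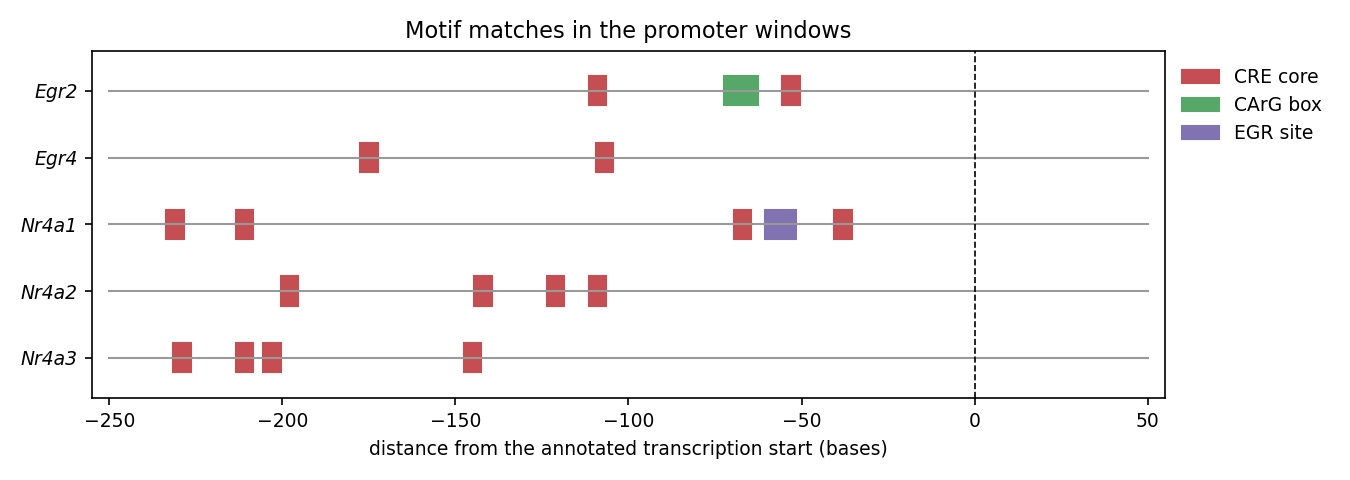
Positions of CRE cores (red), the CArG box (green) and the EGR site (violet) in 1 promoter window each of 5 member genes, with the horizontal axis in bases from the annotated transcription start (dashed line). The 3 Nr4a genes each show 4 CRE cores, and Egr2 and Egr4 show 2 each.

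The deposited values were per-length expression levels, taken here as FPKM after a scaling between libraries by the authors, and depth was estimated at 21.3 to 27.6 in units of 1e6 fragments per library. The libraries stood as follows on the targeted gene. Cpeb1, an RNA-binding protein that controls translation through poly(A) tails, was 1.14 and 3.15 in the injured and 5.97 and 0.356 in the naive libraries labelled knockout, against 1.65, 13.8 and 22.6 in wild-type injured and 7.16, 5.96 and 5.86 in wild-type naive libraries. Knockout naive replicate 1 lay within the wild-type naive range, and wild-type injured replicate 1 within the injured range of the libraries labelled knockout. Which exons Cre deletes is not given in the sources used here, so this gene-level value is a limited check. Some genotype results are given also with either of these libraries left out, and no fit left out both. At 12231, the number of genes with a value of 1 or more was smallest in wild-type injured replicate 3, against 12495 to 13143 in the other libraries. The neuronal markers Tubb3, Map2, Mapt, Gap43, Stmn2, Snap25, Syt1 and Rbfox3 were detected in every library.

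In naive wild-type neurites the genes differed in level. Nr4a3 averaged 19.7 ± 12.8 and Nr4a2 16.9 ± 1.35 FPKM (SD, n = 3 each), and their ranges overlapped. Egr1 at 4.44 ± 0.821 and Nr4a1 at 4.0 ± 0.227 FPKM followed and also overlapped, and Egr4 at 0.888 ± 0.482, Egr3 at 0.639 ± 0.841 and Egr2 at 0.00667 ± 0.0115 FPKM were lowest. In injured wild-type neurites the order was Nr4a1 at 263 ± 72.2, Nr4a2 at 143 ± 50.2, Nr4a3 at 90.9 ± 29.3, Egr1 at 55.5 ± 19.8, Egr4 at 18.5 ± 7.17, Egr2 at 6.20 ± 3.46 and Egr3 at 3.24 ± 3.5 FPKM (SD, n = 3 each). There the ranges of Nr4a2 and Nr4a3, of Nr4a3 and Egr1, and of Egr2 and Egr3 overlapped, whereas those of Nr4a1 and Nr4a2, of Egr1 and Egr4, and of Egr4 and Egr2 did not. Nr4a1, level with Egr1 in naive wild-type neurites, had the highest mean of the 7 genes in injured ones.

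**Figure D2:**
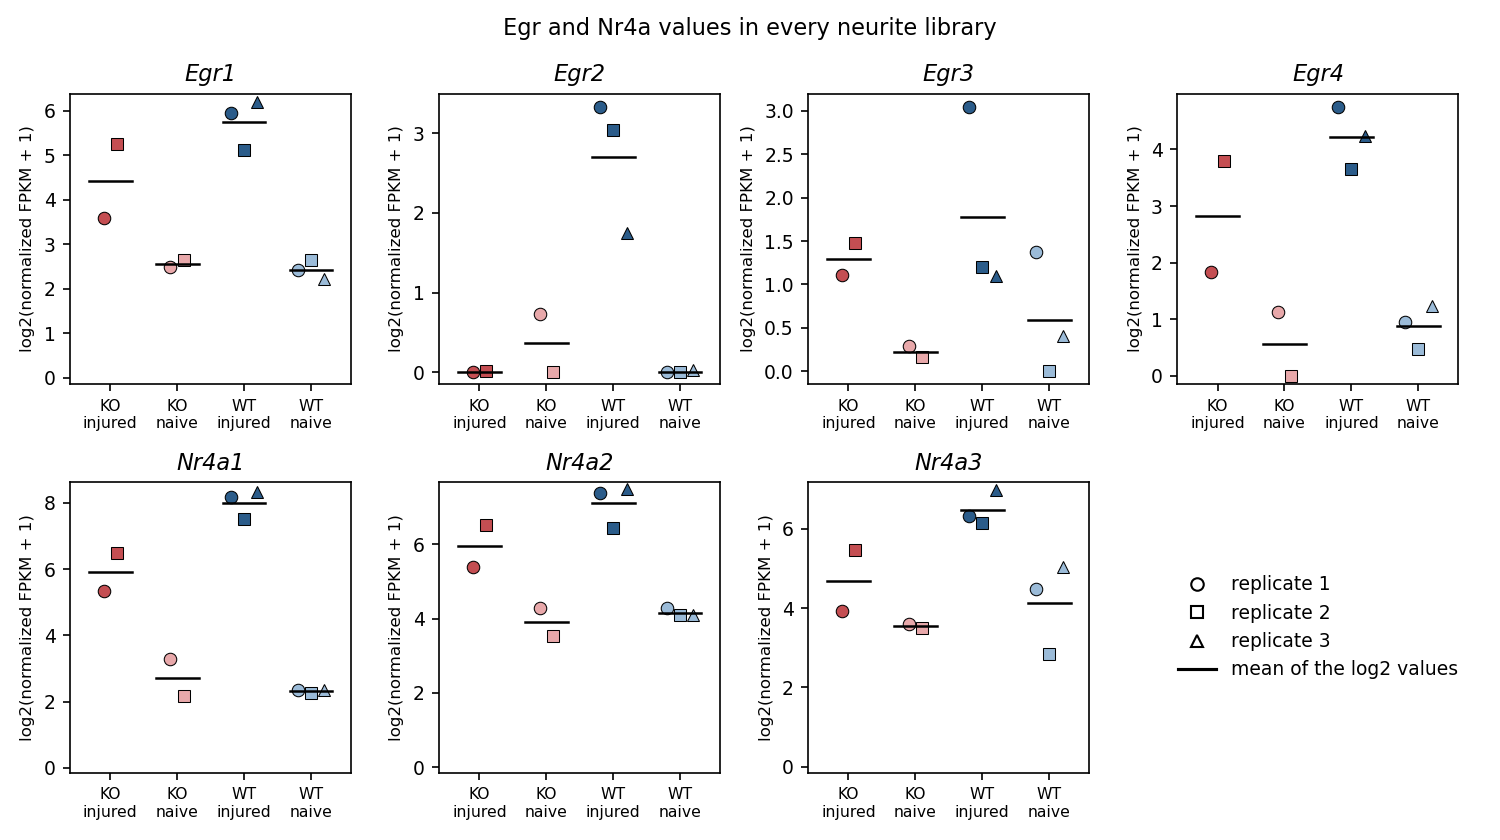
Deposited level of each gene in every library as log2(normalized FPKM + 1), with 2 libraries in each group labelled knockout (KO) and 3 in each wild-type (WT) group, symbols for the replicate number and a line at the mean. In wild-type neurites the injured libraries lie above every naive library for every gene except Egr3, and in the groups labelled knockout for every gene except Egr2.

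Injury in wild-type neurites was the first comparison. Of the 7 genes, 5 rose, Nr4a1, Nr4a2, Egr1, Egr2 and Egr4, where 0.700% of all genes tested were called higher by limma at an adjusted p under 0.05. Egr2 reached 1 FPKM in wild-type injured libraries only. It therefore passed the filter on low values, in every comparison, only through the group where it is high. Every injured library lay above every naive library for 6 of the 7 genes, all but Egr3, against 9.78% of all genes tested. The median log2 fold change of the 7 genes was 2.94, against 0.0092 over all genes tested. Because the 7 genes were chosen with earlier results of these data known, their standing against all genes is a description and no test.

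Nr4a1, an orphan receptor that couples activity to transcription, was 288, 182 and 319 FPKM in wild-type injured libraries, against 4.13, 3.74 and 4.14 FPKM in wild-type naive libraries. The groups were far apart, and the naive libraries lay close together. Its mean was 65.7 times as high after injury, and the log2 fold change of 5.68 ± 0.38 (SE, n = 3 each, adjusted p = 1.68e-05) had the smallest p of all genes tested. Nr4a2, needed for the identity of midbrain dopamine neurons, was 166, 84.9 and 177 FPKM in wild-type injured libraries, against 18.5, 16.1 and 16.1 FPKM in wild-type naive libraries. It rose by 2.94 ± 0.36 on the log2 scale (adjusted p = 0.00248). Nr4a3, the third receptor of the family, was 78.6, 69.7 and 124 FPKM in wild-type injured libraries, against 21.2, 6.15 and 31.7 FPKM in wild-type naive libraries. The groups did not overlap, but the naive libraries spread 5.16-fold, and the log2 difference of 2.36 ± 0.53 missed the threshold (adjusted p = 0.0559).

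Egr1, the most studied member of its family, was 60.7, 33.7 and 72.2 FPKM in wild-type injured libraries, against 4.38, 5.28 and 3.64 FPKM in wild-type naive libraries. It rose by 3.32 ± 0.46 on the log2 scale (adjusted p = 0.00514). Egr4 was 25.9, 11.6 and 17.9 FPKM in wild-type injured libraries, against 0.927, 0.388 and 1.35 FPKM in wild-type naive libraries. It rose by 3.33 ± 0.64 (adjusted p = 0.0308), but not when wild-type injured replicate 1 or 3 or any wild-type naive replicate was left out (adjusted p from 0.0702 to 0.140).

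Egr2, the factor that drives myelination in Schwann cells, was 9.06, 7.20 and 2.35 FPKM in wild-type injured libraries, about 546, 435 and 110 fragments. In wild-type naive libraries it was listed at 0, 0 and 0.02 FPKM. Its rise of 2.69 ± 0.54 (adjusted p = 0.0353) depends on the added 1 FPKM, since the naive group is at or near 0. Without wild-type injured replicate 3 it passed (adjusted p = 0.0219), and without any other library it did not (0.0523 to 0.150). Egr3, needed for muscle spindles, was 7.28, 1.30 and 1.15 FPKM in wild-type injured libraries, against 1.59, 0 and 0.325 FPKM in wild-type naive libraries. Replicate 1 was the highest in both groups, the groups overlapped, and the log2 difference of 1.19 ± 0.62 did not pass (adjusted p = 0.419). Of the injured libraries, replicate 2 was lowest for Egr1, Egr4 and the 3 Nr4a genes, and replicate 3 for Egr2 and Egr3.

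Injury in the neurites labelled knockout gave fewer calls. Only Nr4a1 of the 7 genes was called higher by limma, where 0.0255% of all genes tested were. Unadjusted limma p-values were under 0.05 for 4 of the 7, Nr4a1, Nr4a2, Egr1 and Egr4, all higher after injury. Of all genes tested 900 (5.73%) had such a p, of which 636 were lower. Both injured libraries lay above both naive libraries for 6 of the 7 genes, all but Egr2, against 13.5% of all genes tested. The median log2 fold change was 1.86, against -0.087 over all genes tested.

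Nr4a1 was 39.7 and 88.2 FPKM in injured libraries labelled knockout, against 8.66 and 3.52 FPKM in their naive libraries. It rose by 3.19 ± 0.46 (SE, n = 2 each, adjusted p = 0.0322). That call held without knockout injured replicate 1 or wild-type injured replicate 2 or 3 (adjusted p from 0.0264 to 0.0496), and was lost without any 1 of the other 7 libraries (0.0610 to 0.520). Nr4a2 was 40.9 and 90.6 FPKM in injured libraries labelled knockout, against 18.3 and 10.5 FPKM in their naive libraries, a log2 difference of 2.05 ± 0.44 (adjusted p = 0.252). Nr4a3 was 14.1 and 43.1 FPKM in injured libraries labelled knockout, against 11.2 and 10.2 FPKM in their naive libraries (1.14 ± 0.64, adjusted p = 0.933). Both genes separated the groups without passing the test.

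Egr1 was 11.1 and 37.1 FPKM in injured libraries labelled knockout, against 4.58 and 5.27 FPKM in their naive libraries (1.86 ± 0.56, adjusted p = 0.607). Egr4 was 2.58 and 12.9 FPKM in injured libraries labelled knockout, against 1.17 and 0 FPKM in their naive libraries (2.26 ± 0.78, adjusted p = 0.719). Egr3 was 1.16 and 1.80 FPKM in injured libraries labelled knockout, against 0.221 and 0.119 FPKM in their naive libraries (1.07 ± 0.76, adjusted p = 0.961). Egr2 was the exception. It was listed at 0 and 0.009 FPKM in injured libraries labelled knockout, about 0 and 1 fragments, and at 0.663 and 0 FPKM in their naive libraries, about 41 and 0 fragments (-0.36 ± 0.66, adjusted p = 0.995). Its only level above 0.01 FPKM in these 4 libraries was that of knockout naive replicate 1, the library whose Cpeb1 lay in the wild-type naive range. In the wild-type naive libraries themselves Egr2 was 0, 0 and 0.02 FPKM, and the reason for the level in knockout naive replicate 1 was not tested.

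The 2 injured libraries labelled knockout differed from each other. Replicate 2 lay above replicate 1 for 7 of the 7 genes, by 1.55 to 4.99 times for the 6 genes with a value in both, and the median log2 difference was 1.13. Over all genes tested replicate 2 was the higher in 48.5%, with a median difference of 0. The fit pooled the spread of each gene over all 4 groups, so the difference within this pair enters the standard errors of every comparison.

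Both genotypes were compared in injured neurites. None of the 7 genes passed by limma, where 0.0891% of all genes tested were called lower, and 5 of the 7 had an unadjusted p under 0.05, all lower in the libraries labelled knockout, as did 1642 of all genes tested (10.5%), of which 935 were lower. Every injured library labelled knockout lay below every wild-type injured library for Egr2, Nr4a1 and Nr4a3, 3 of the 7 genes, against 12.2% of all genes tested. Nr4a1 was 39.7 and 88.2 FPKM, against 288, 182 and 319 FPKM in wild-type injured libraries, a log2 difference of -2.09 ± 0.42 (95% interval -3.01 to -1.17, adjusted p = 0.0728). Egr2 was 0 and 0.009 FPKM, against 9.06, 7.20 and 2.35 FPKM in wild-type injured libraries (-2.70 ± 0.60, adjusted p = 0.12). Egr2 was tested here only because these wild-type injured values passed the filter on low values. Without wild-type injured replicate 3 the Egr2 difference was -3.18 and passed (adjusted p = 0.0422). Nr4a3 differed by -1.79 ± 0.59 (adjusted p = 0.317). Without wild-type injured replicate 1, whose Cpeb1 was low, the differences of Nr4a1 and Egr2 were -2.01 and -2.38 (adjusted p = 0.162 and 0.167).

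The other 4 genes overlapped between the genotypes. Egr1 differed by -1.33 ± 0.51, Egr4 by -1.40 ± 0.71, Nr4a2 by -1.14 ± 0.40 and Egr3 by -0.48 ± 0.70 on the log2 scale (adjusted p = 0.388, 0.520, 0.344 and 0.831). For each of them knockout injured replicate 2 lay within the wild-type injured range, and for all but Egr3 replicate 1 lay below it. Egr3 without wild-type injured replicate 1 differed by 0.15, the other way.

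Between genotypes in naive neurites none of the 7 genes passed by limma, none had an unadjusted p under 0.05 (590 of all genes tested did), and 0.146% of all genes tested were called in either direction. All 7 genes overlapped between the groups, with log2 differences between -0.56 for Nr4a3 and 0.40 for Nr4a1, each with an adjusted p of 1. The 95% intervals ran from -0.51 to 1.32 for Nr4a1, -1.13 to 0.61 for Nr4a2 and -1.84 to 0.71 for Nr4a3. They ran from -0.98 to 1.24 for Egr1, -0.94 to 1.65 for Egr2, -1.88 to 1.14 for Egr3 and -1.86 to 1.21 for Egr4, so differences of these sizes cannot be told from none. Without knockout naive replicate 1 the Nr4a1 difference was -0.14.

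The difference between the 2 injury responses was tested as an interaction. By limma none of the 7 genes passed, and 0% of all genes tested did, although 979 of them had an unadjusted p under 0.05. The estimate was below 0 for all 7 genes, against 56.8% of all genes tested, whose median was -0.13, but its direction turned for Egr3 under some alternatives. Nr4a1 had -2.49 ± 0.60 (95% interval -3.79 to -1.20, unadjusted p = 0.00114, adjusted p = 0.661) and Egr2 -3.05 ± 0.85 (-4.89 to -1.22, unadjusted p = 0.00325, adjusted p = 0.724). Without wild-type injured replicate 1 they were -2.41 and -2.74, and without knockout naive replicate 1 -1.95 and -2.69. The intervals of the other 5 genes included 0, with estimates of -1.46 for Egr1, -1.22 for Nr4a3, -1.08 for Egr4, -0.88 for Nr4a2 and -0.12 for Egr3. The comparisons share libraries, so their estimates are not independent.

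**Figure D3:**
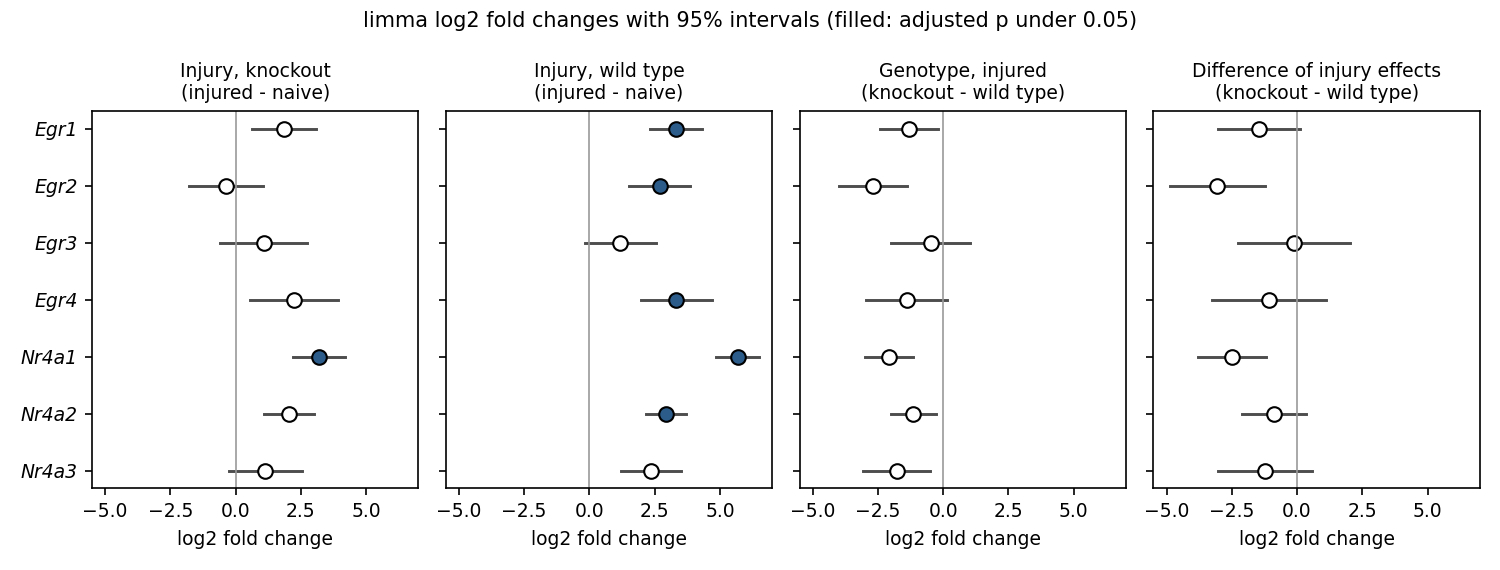
Log2 fold changes from limma (points) with 95% intervals (lines) for the 7 genes in 4 comparisons, filled where the adjusted p was under 0.05. In wild-type injury 5 genes are filled, in injury of the neurites labelled knockout Nr4a1 is, and no gene is filled in the genotype comparison of injured neurites or in the difference of the injury effects.

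The make-up of each family within a library does not change when a library is scaled by a single factor. Nr4a1 made up 40.8% ± 1.53 of the summed Nr4a level in injured libraries labelled knockout and 18.6% ± 5.77 in their naive libraries (SD, n = 2 each). It made up 53.2% ± 1.49 in wild-type injured and 10.6% ± 3.36 in wild-type naive libraries (SD, n = 3 each). The share in injured libraries labelled knockout, 41.9% and 39.8%, lay below the wild-type injured shares of 54.1%, 54.0% and 51.5%. The exact permutation test gave a two-sided p of 0.20 for this genotype difference, 0.33 for injury in the neurites labelled knockout and 0.10 for injury in wild-type neurites (n = 2 and 3, 2 and 2, and 3 and 3), each the smallest p these numbers of libraries allow. Nr4a2 made up 42.0% ± 1.67 in injured libraries labelled knockout and 28.3% ± 2.94 in wild-type injured libraries, and Nr4a3 17.2% ± 3.21 and 18.5% ± 3.25. Egr1 was the largest part of the Egr sum in every library, from 58.9% to 97.8%. The summed Nr4a level was 158 ± 90.0 FPKM in injured libraries labelled knockout, 31.2 ± 9.82 in their naive libraries, 496 ± 146 in wild-type injured and 40.6 ± 13.3 in wild-type naive libraries. The summed Egr level was 33.3 ± 26.1, 6.01 ± 0.878, 83.5 ± 26.1 and 5.97 ± 0.824 FPKM in the same order of groups.

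**Figure D4:**
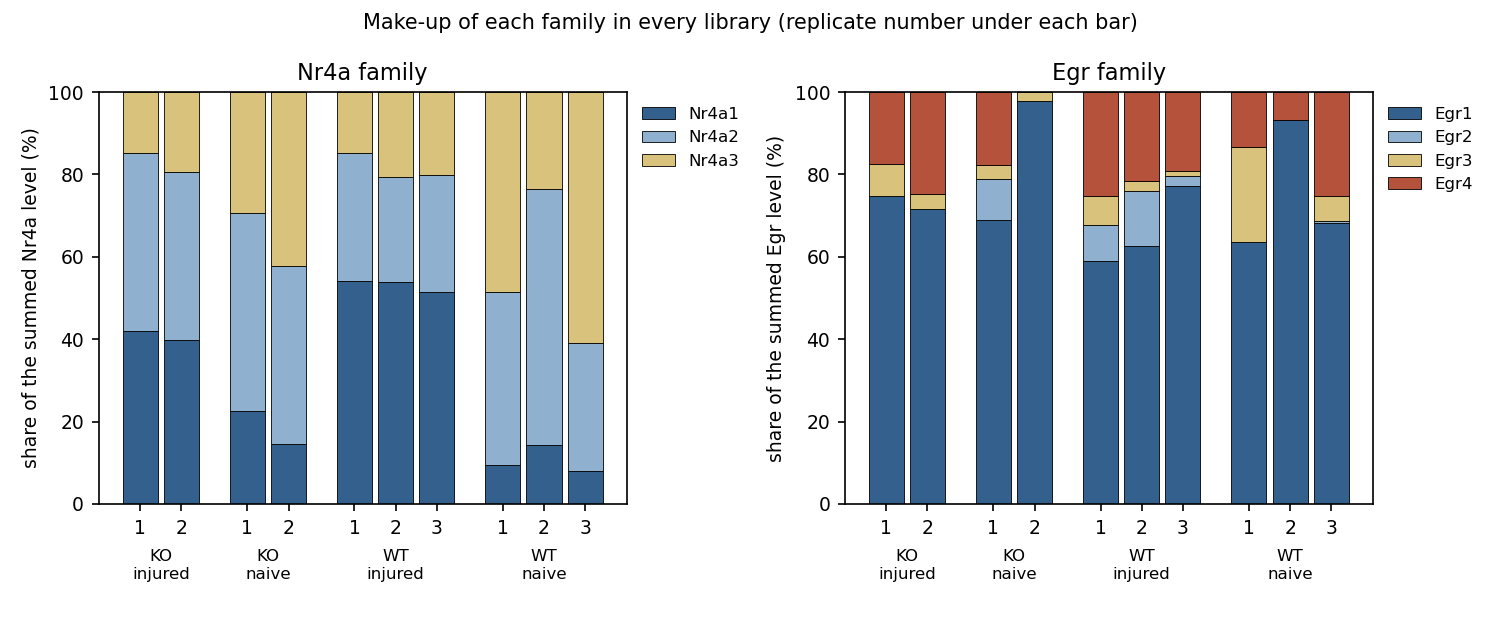
Share of each gene in the summed Nr4a level (left) and Egr level (right), in percent, with 1 bar per library for the groups labelled knockout (KO) and wild type (WT). Nr4a1 fills 39.8% to 41.9% of the bar in injured libraries labelled knockout and 51.5% to 54.1% in wild-type injured libraries, and Egr1 is the largest part of every Egr bar.

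The genes whose pattern over the 10 libraries was closest to each family mean were found by the root mean square (RMS) difference of centred log2(FPKM + 1) values, among 12877 genes compared. For the Nr4a mean, whose own RMS was 1.68, they were Jun (0.290), Gem (0.317), Ier2 (0.372), Ier5l (0.447) and Sik1 (0.467). For the Egr mean, with an RMS of 1.21, they were Dusp1 (0.341), Klf5 (0.375), Hbegf (0.410), Sik1 (0.413) and Nap1l5 (0.458). Jun, a subunit of the AP-1 factor, was 40.9 and 87.3 FPKM in injured libraries labelled knockout, 12.1 and 10.8 FPKM in their naive libraries, 155, 92.6 and 165 FPKM in wild-type injured and 11.6, 12.3 and 15.6 FPKM in wild-type naive libraries. Dusp1, a phosphatase that switches off MAP kinases, was 29.4 and 75.5, 35.3 and 14.3, 140, 81.3 and 111, and 17.6, 13.6 and 24.8 FPKM in the same groups.

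**Figure D5:**
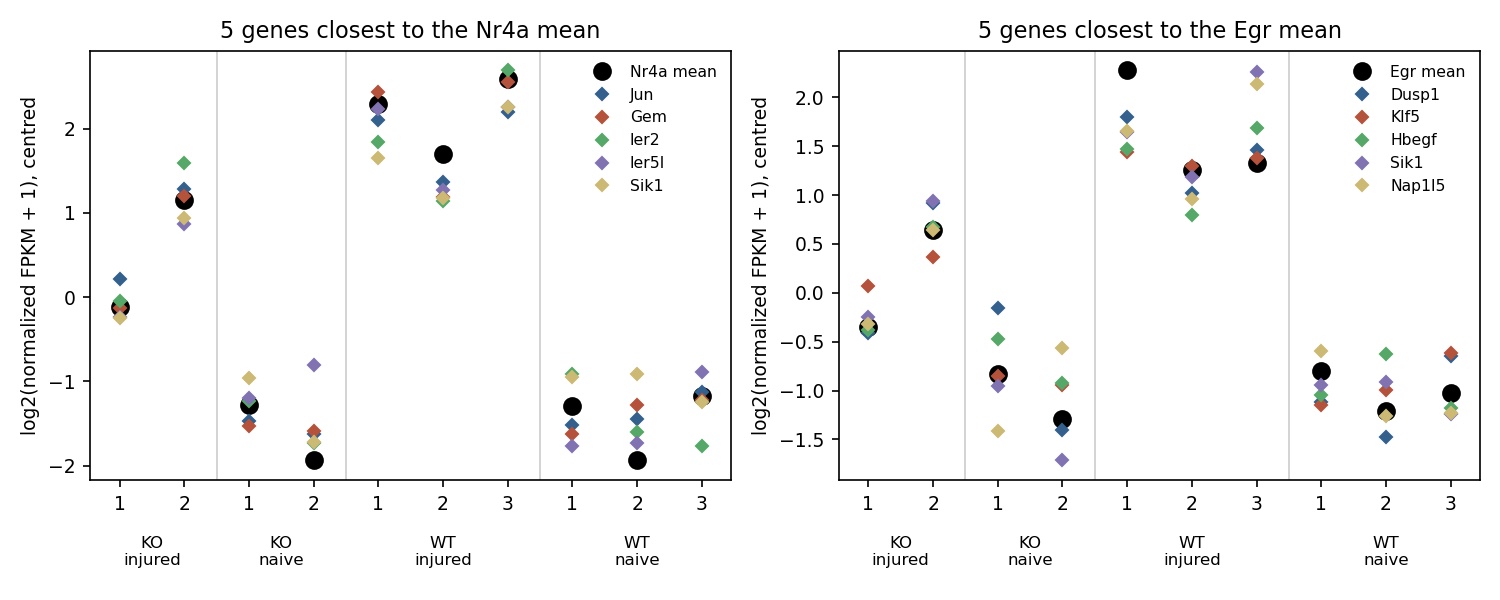
Centred log2(normalized FPKM + 1) of the Nr4a mean (left) and the Egr mean (right) in black and of the 5 genes closest to each in colour, by library. The closest gene differs by 0.290 RMS (Jun) on the left and by 0.341 RMS (Dusp1) on the right.

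Other genes of the same pathways were taken from lists chosen with earlier results of these data known. Of 32 other early response genes, 16 rose in wild-type injury and none fell, with a median log2 fold change of 2.62 and all 32 estimates above 0. Of all genes tested 0.700% were called higher there, and 49.3% had an estimate below 0. The AP-1 subunit gene Fos was 478, 267 and 501 FPKM in wild-type injured libraries, against 2.11, 1.23 and 4.34 FPKM in wild-type naive libraries (6.91 ± 0.47, adjusted p = 1.68e-05). Npas4, an activity-dependent factor of neurons, was 63.8, 30.7 and 67.4 FPKM in wild-type injured libraries, against 1.02, 1.01 and 0.049 FPKM in wild-type naive libraries (5.0 ± 0.54, adjusted p = 0.00101). In the neurites labelled knockout 2 of the 32 rose, Junb (3.5 ± 0.55, adjusted p = 0.0475) and Gadd45g (4.72 ± 0.53, adjusted p = 0.0123), with a list median of 1.07. There 0.0255% of all genes tested were called higher. Fos there was 88.8 and 340 FPKM in injured and 10.9 and 17.4 FPKM in naive libraries (3.56 ± 0.58, adjusted p = 0.0551). Npas4 was 11.4 and 23.4, against 4.52 and 1.26 FPKM (2.29 ± 0.66, adjusted p = 0.562). Arc, of the same list, went the other way (-1.33 ± 0.73, adjusted p = 0.933). In wild-type neurites Fos, Npas4, Junb and Gadd45g passed with any 1 library left out. In the neurites labelled knockout Junb passed only without wild-type injured replicate 3 (adjusted p = 0.0268, otherwise 0.0578 to 0.717). Gadd45g did not pass there without knockout injured replicate 2, either knockout naive replicate or wild-type injured replicate 1 (0.0593 to 0.268). The count of 16 was 8 to 10 without wild-type injured replicate 1 or 3 or any 1 wild-type naive replicate, and 5 without the filter on low values. Between genotypes in injured neurites none of the 32 passed, the median was -1.19 and all 32 estimates were below 0, against 53.1% of all genes tested.

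Upstream regulators showed few calls. Of 16 genes of serum response factor and its ternary complex pathway none passed in wild-type injury, and the smallest p belonged to Elk1, a ternary complex factor, at -2.65 ± 0.63 (adjusted p = 0.0739). Of 16 genes of the CREB and MEF2 pathways 1 rose, Crem, whose short product represses CREB targets, at 136, 45.4 and 154 FPKM in wild-type injured libraries, against 24.0, 15 and 15.2 FPKM in wild-type naive libraries (2.42 ± 0.48, adjusted p = 0.0353). It passed without knockout injured replicate 1 or 2 or wild-type injured replicate 2, and not without any 1 of the other 7 libraries (adjusted p from 0.0561 to 0.168). In injured libraries labelled knockout Crem was 14.4 and 48.0 FPKM, against 32.0 and 39.7 FPKM in their naive libraries (-0.42 ± 0.59, adjusted p = 0.989). The list medians in wild-type injury were -0.073 and -0.12.

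Of 14 tested cofactors and reported targets of EGR proteins 1 rose in wild-type injury, Arc, a synaptic gene regulated by activity that is also among the 32 early response genes. Arc was 17.3, 11.3 and 13.9 FPKM in wild-type injured libraries, against 0.273, 1.5 and 0.679 FPKM in wild-type naive libraries (3.09 ± 0.60, adjusted p = 0.0328). It too passed without knockout injured replicate 1 or 2 or wild-type injured replicate 2 and not without any 1 of the other 7 (0.0539 to 0.149). In injured libraries labelled knockout it was 0 and 2.58 FPKM, against 3.49 and 4.04 FPKM in their naive libraries. The corepressors Nab1 and Nab2, which bind EGR proteins directly and were picked for that role after their values were seen, did not pass. Nab1 was 8.18, 5.26 and 17.9 FPKM in wild-type injured libraries, against 1.44, 2.02 and 2.11 FPKM in wild-type naive libraries (1.86 ± 0.64, adjusted p = 0.227). Nab2 differed by 0.20 ± 0.51 (adjusted p = 0.905). Next by p among the others of the list were Thbs1, a secreted matrix protein, at -2.45 ± 0.62 (adjusted p = 0.0936), and the synaptic vesicle genes Syn1 at -1.02 ± 0.27 (0.103) and Syn2 at -1.58 ± 0.52 (0.208). The median of this list was 0.026.

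Of 14 tested partners and reported targets of NR4A receptors none passed in wild-type injury, with a median of -0.055. Vip, a neuropeptide, was listed at 0 in all 3 wild-type injured libraries, against 6.51, 2.23 and 2.62 FPKM in wild-type naive libraries (adjusted p = 0.146). Spp1, osteopontin, was 4.28, 16 and 56 FPKM in wild-type injured libraries, against 5.52, 0.883 and 0 FPKM in wild-type naive libraries (adjusted p = 0.163). Bdnf, a neurotrophin, was 9.67, 12.8 and 21 FPKM in wild-type injured libraries, against 0.010, 5.74 and 6.04 FPKM in wild-type naive libraries (2.03 ± 0.69, adjusted p = 0.222). None of 25 other nuclear receptor genes passed (median -0.099), whereas 1 of 15 other zinc finger genes of the Sp and Klf kind did, Klf5, at 75.6, 68.3 and 72.2 FPKM in wild-type injured libraries, against 11.7, 13.2 and 17.4 FPKM in wild-type naive libraries (2.29 ± 0.27, adjusted p = 0.00169). Klf5 passed with any 1 library left out. Klf2 (2.79 ± 0.57, adjusted p = 0.0423) and Klf4 (3.66 ± 0.76, adjusted p = 0.0435), counted above with the early response genes, rose as well. With each of the 10 libraries left out in turn, Klf2 passed in 1 of the 10 fits and Klf4 in 2. The median of the zinc finger list was 0.065. In the neurites labelled knockout no gene of these 6 regulator, partner and relative lists passed for injury, nor did any between genotypes in injured neurites.

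Markers of cell types and of cell bodies moved beside these genes, and their part in the results was not tested. Fewer cells of a type and less RNA per cell cannot be told apart in these bulk samples. Of 9 interneuron markers 5 fell in wild-type injury and 1, Sst, in the neurites labelled knockout. Of all 15712 genes tested, 39 were called lower in wild-type injury and 5 in the neurites labelled knockout. The interneuron sum was 63.8 to 113 FPKM in injured and 488 to 855 in naive libraries labelled knockout. It was 56.9 to 90.2 in wild-type injured and 449 to 709 in wild-type naive libraries. Of 8 astrocyte markers 1, Sox9, rose in wild-type injury, where 0.700% of all genes tested were called higher. The astrocyte sum was 728 to 822 FPKM in injured and 489 to 563 in naive libraries labelled knockout. It was 716, 620 and 1473 in wild-type injured and 398 to 542 in wild-type naive libraries. Of the wild-type injured libraries only replicate 3 lay above the injured libraries labelled knockout. Of 7 radial glia markers 1, Vim, rose in wild-type injury. The radial glia sum was 3782 to 3826 FPKM in injured and 3138 to 4223 in naive libraries labelled knockout. It was 2560 to 4789 in wild-type injured and 2275 to 2806 in wild-type naive libraries. Fabp7 was the largest part of this sum in every library, so the sum largely repeats Fabp7. That gene did not pass in wild-type injury (0.31 ± 0.21, adjusted p = 0.534). None of 7 oligodendrocyte lineage, 8 projection neuron or 8 general neuronal markers passed. The general neuronal sum was 3357 to 4395 FPKM in injured and 4500 to 4932 in naive libraries labelled knockout, 2589 to 3387 in wild-type injured and 3859 to 4334 in wild-type naive libraries. The microglial markers Cx3cr1 and Tmem119 were at 0 in all 10 libraries, and all 6 microglial markers summed to at most 7.14 FPKM in any library. The interneuron count of 5 was 2 without wild-type naive replicate 1 or 2, 3 without wild-type naive replicate 3 or wild-type injured replicate 1 or 3, and 1 without the filter. Sst in the neurites labelled knockout passed in 4 of the 10 fits that left out a library (otherwise adjusted p from 0.0593 to 0.380). Sox9 missed without wild-type naive replicate 1 or 2 (0.0723 and 0.0733), and Vim passed in 3 of these 10 fits (otherwise 0.0529 to 0.202).

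Of all genes tested, 0.700% were called higher in wild-type injury and 0.0891% lower between genotypes in injured neurites. Of 7 nuclear-retained transcripts, which mark cell bodies, 1 rose in wild-type injury and fell between genotypes in injured neurites, Malat1. It was 1236 and 2424 FPKM in injured libraries labelled knockout, against 6633, 5818 and 5513 FPKM in wild-type injured libraries (-1.79 ± 0.29, adjusted p = 0.020), and 2603, 3440 and 1856 FPKM in wild-type naive libraries (injury 1.23 ± 0.26, adjusted p = 0.0455). The genotype difference missed without knockout injured replicate 1 or wild-type injured replicate 1 or 2 (0.0522 to 0.302), and the injury difference passed only without knockout injured replicate 1 or 2 (otherwise 0.0562 to 0.191). The other 6 of these transcripts did not pass in either comparison, and the list medians were -0.25 in wild-type injury and -0.43 between genotypes in injured neurites. The summed level was 1825 to 2975 FPKM in injured and 2342 to 3224 in naive libraries labelled knockout, 6097 to 7329 in wild-type injured and 2776 to 4199 in wild-type naive libraries. Malat1 was the largest part of this sum in every library, so the sum largely repeats Malat1.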

How the data were processed

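The submitters' processing notes name STAR 2.4.2a, RSEM 1.2.21 and the mm10 build. The values deposited for 45195 Ensembl genes in 10 libraries were taken as the authors' FPKM after division by a TMM factor per library, as deposited. No source states this. It rests on the values, of which at least 99.994% per library lay within 0.001 of a whole multiple of a step, and on TMM factors recomputed to within 7.51e-09. TPM from which some genes were left out would look the same, and both are per length. Depth was estimated apart from these steps, from genes with a single transcript. It is the fragment number, fitted together with fragment length, that brought their values closest to whole fragments.

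The test was run in R 4.3.3 with limma 3.58.1, on log2 of the value plus 1, for genes that reached 1 in 2 or more libraries, with 4 group means over all 10 libraries, a mean-variance trend, and Benjamini-Hochberg adjustment over the 15712 genes at a threshold of 0.05. Adjusted p-values throughout are limma's, on 6 residual and 6.80 prior degrees of freedom. Fold changes understate low genes. The fit was checked on simulated data for wild-type injury only, with changes set in genes well above 0. That check does not cover changes in genes near 0 or the comparisons of libraries labelled knockout. Symbols matched 44548 gene IDs. Exons of the 7 genes overlapped no other gene, and none had a near-identical transcript (95% identity). Named genes are the members, Cpeb1, genes from each list that passed or, otherwise, were among its 4 smallest p in wild-type injury, and the 5 closest in pattern to each family, with Nab1 and Nab2 and the cell type markers beside them. Members and lists were chosen with earlier results of these data known. Of 3 endothelial and mural genes tested none passed for injury. Pseudocounts, filters, scalings, a replicate block and left-out libraries were tried as alternatives. Leaving out wild-type injured replicate 3 with knockout naive replicate 1 was added after seeing the data.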

Additional observations from a re-analysis of the deposited data

How the results depend on the processing

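Nr4a1, Nr4a2 and Egr1 rose in wild-type injury with each library left out in turn. Of the 7 genes 5 passed in that comparison. With a pseudocount of 0.1 this count was 3, without a filter on low values it was 1, and with a library left out it ranged from 3 to 4. Without a filter Egr1 and Nr4a2 missed narrowly (adjusted p = 0.0552 and 0.0529). Over all genes 110 of 149 calls were higher, against 96 of 158 after quantile normalization, 105 of 163 after median-ratio scaling, 105 of 176 with TMM factors times column totals and 12 of 25 without a filter. With a library left out it ranged from 28 of 35 (wild-type naive replicate 1) to 203 of 311 (wild-type injured replicate 2). In the neurites labelled knockout the count of 1 was 0 with a pseudocount of 0.1, without a filter, without a trend, with only the groups compared (where Egr2 was not tested) and with the replicate block, and 0 to 1 with a library left out. Between genotypes in injured neurites it was 1 with a pseudocount of 5 (Nr4a1, adjusted p = 0.0390) and 0 to 1 with a library left out. In naive neurites and for the interaction it was 0 throughout.

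The replicate block gave 6 members in wild-type injury, Nr4a3 added (adjusted p = 0.0445), and 0 in the neurites labelled knockout (Nr4a1, adjusted p = 0.0586). The labels do not say whether the numbers pair the samples. The deviations of 13 same-numbered pairs correlated between -0.048 and 0.041. That cannot decide the question, since in groups of 2 libraries the deviations mirror each other and the pairs are not independent.

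Some differences that passed no test turned round, shown here with their range over the left-out libraries. Egr2 in injury of the neurites labelled knockout ranged from -0.73 to 0.0065 (without knockout naive replicate 1, also with wild-type injured replicate 3 left out). In naive neurites Egr2 ranged from -0.0095 to 0.72 and Nr4a1 from -0.14 to 0.95, both below 0 under the same 2 settings. There Egr4 ranged from -0.88 to 0.24 and Nr4a2 from -0.63 to 0.11, above 0 without knockout naive replicate 2, and Egr3 from -0.66 to 0.022, above 0 without wild-type naive replicate 1. Egr3 between genotypes in injured neurites ranged from -0.83 to 0.15, above 0 without wild-type injured replicate 1. The Egr3 interaction was 0.052 with a pseudocount of 0.1 and ranged from -0.51 to 0.52, above 0 without knockout injured replicate 1 (0.069), wild-type injured replicate 1 or wild-type naive replicate 2 (0.18). The cause was not tested. Groups of 2 libraries and, for Egr2 and Egr3, few fragments limit all of these.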
